A study of Mus musculus with 8 samples.

Results

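A set of 10 genes that restrain signalling through the B cell receptor (BCR) was followed across B-cell development in mouse bone marrow. They were taken by symbol from the table of protein-coding mRNAs, in which each had 1 row: the receptors Cd22, Siglecg, Cd72, Fcgr2b, Pirb, Lair1, Btla and Cd5, and the phosphatases Ptpn6 and Ptpn22, or 10 of 22298 genes. Cells of 4 stages were sorted by flow cytometry from female C57BL/6 mice of 8 to 10 weeks, and the cells of 3 mice were pooled for each library; no treatment or altered gene was named for any group. Pro-B cells were gated as B220+IgM-CD43+, pre-B cells as B220+IgM-CD43-, immature B cells as B220+IgM+CD43- and mature B cells as B220hi IgM+CD43-. Each stage had 1 rRNA-depleted library, which gave mRNA, lncRNA and circRNA tables, and 1 small RNA library.

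The BCR signals through kinases, and its signal is held back by receptors that carry an immunoreceptor tyrosine-based inhibitory motif (ITIM). When the kinase Lyn phosphorylates an ITIM, the motif recruits a phosphatase, mainly SHP-1 (the product of Ptpn6) or the lipid phosphatase SHIP-1 (the product of Inpp5d), which removes phosphate from the signalling proteins or lipids nearby. The ligands are sialic acids, semaphorins, immune complexes, MHC class I, collagens and TNF receptor family members, and the system sets the threshold at which maturing B cells respond to self antigens.

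The mRNA counts of the libraries fell into pairs. The mRNA columns summed to 867920 counts in pro-B, 240231 in pre-B, 223495 in immature and 849350 in mature B cells, so the pre-B and immature libraries stood apart. The lncRNA columns, at 2.80e+06, 3.47e+06, 3.23e+06 and 2.77e+06 counts from pro-B to mature, were larger in the pre-B and immature libraries. The mRNA table held 23.7%, 6.48%, 6.48% and 23.5% of the counts of the mRNA and lncRNA tables together. Levels below are CPM, the count divided by the mRNA column total and scaled to 1e6 counts, and a 0 leaves room for 3 counts, which are 3.46, 12.5, 13.4 and 3.53 CPM in these libraries. The deposited FPKM, a value per kilobase of transcript, divides by a total that did not follow the mRNA columns. Against the CPM, FPKM moved the median gene by -1.93 on the log2 scale in Pre vs. Pro and by 1.92 in Mature vs. Immature, but by 0.02 in Immature vs. Pre and 0.01 in Mature vs. Pro. The pro-B and mature marker lists were highest in their own libraries, but the pre-B list was not. The pre-B list summed to 2199, 1250, 670 and 71.7 CPM from pro-B to mature. Of its genes, Rag1 and Cd93 were highest in pro-B and Vpreb3 in immature cells. Rag2 was highest in the pre-B library, at 109, 316, 94.0 and 4.71 CPM. So, by little, was Il2ra, at 68.0, 83.3, 26.8 and 2.35 CPM. Dntt, the terminal transferase of pro-B cells, had 845 counts in the pro-B library and 0 in the others, and Fcer2a, which encodes the mature marker CD23, had 358 counts in the mature library and 0 in the others. Igll1, the surrogate light chain, was at 0 in the pre-B library, and Ptprc, which encodes the B220 antigen of the gate, had 252, 9.40, 15.6 and 574 counts from pro-B to mature.

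With 1 library in each group no test between stages was possible, and no p-value is given. For each pair of libraries the ratio of CPM was given with its exact 95% conditional binomial interval, which covers counting error only, not the spread between mice or sorts. A gene was called higher or lower when the ratio was at least 2-fold and its interval left out 1, among genes with 10 or more counts over both libraries. The words rose and fell are kept for such calls. A 0 entered as 3 counts, which makes the fold a lower bound apart from the counting error of the other library. The 95% lower limit of the fold, which holds that error, is given in brackets. Fewer cells of a type and less RNA per cell cannot be told apart in these pooled libraries.

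**Figure D1:**
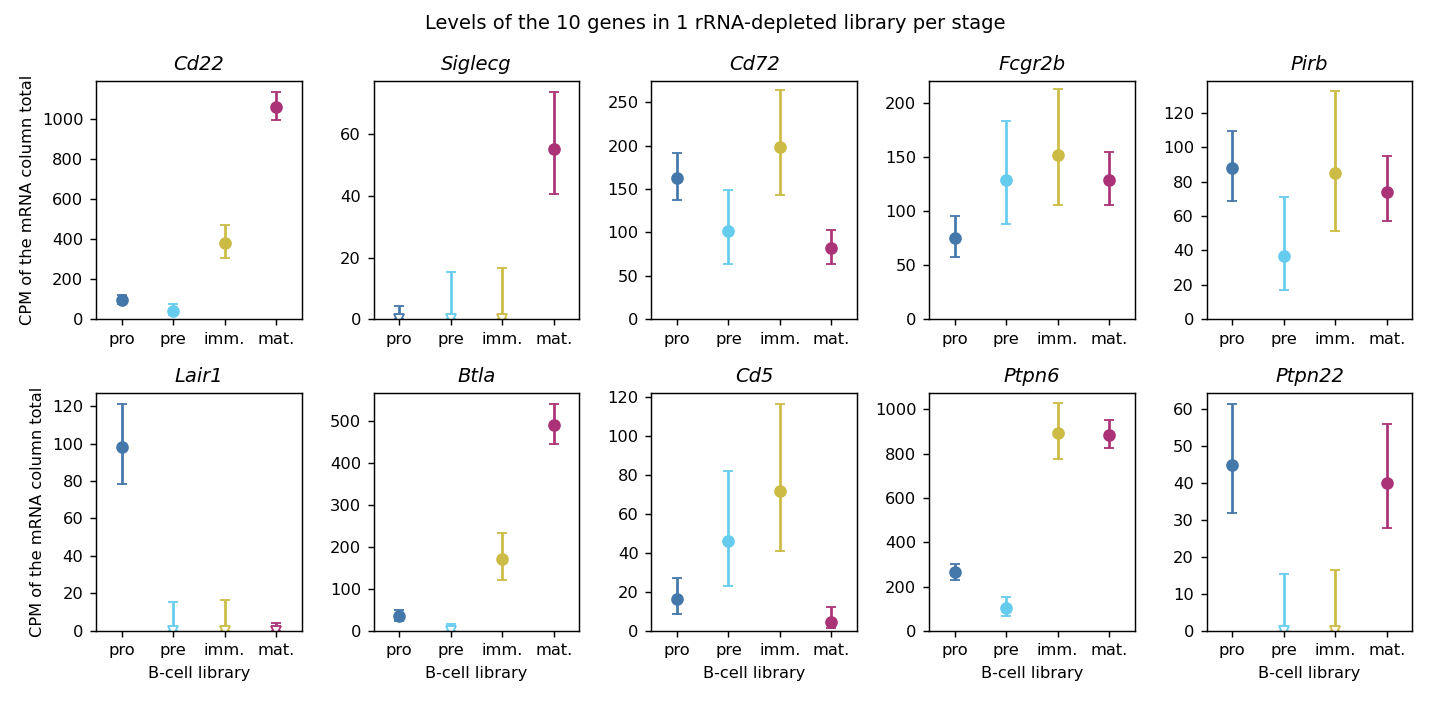
CPM of the mRNA column total (y axis, a separate linear scale for each gene) in the pro-B, pre-B, immature and mature rRNA-depleted libraries (x axis, 1 library each). Points are the levels, bars the exact 95% Poisson interval of the count, and open triangles mark 0 counts. Cd22, Btla and Siglecg stand highest in the mature library, at 1063, 491 and 55.1 CPM, while Lair1 has counts in the pro-B library only, at 97.9 CPM.

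Cd22 (ENSMUSG00000030577, chromosome 7) encodes a sialic acid-binding lectin of B cells (a Siglec) that recruits SHP-1 through its ITIMs. It had 83, 10, 85 and 903 counts from pro-B to mature, or 95.6, 41.6, 380.3 and 1063 CPM. The mature library was highest and the pre-B library lowest, and none of the neighbouring intervals in the order mature, immature, pro-B, pre-B included 1; on the FPKM scale (8.04, 1.70, 4.44 and 70.2) the pro-B library came before the immature one. Cd22 was 11.1-fold higher in mature than in pro-B cells (95% interval 8.87 to 14.1), a ratio above that of 99.1% of the genes considered. It fell 2.30-fold from pro-B to pre-B (1.19 to 4.97), rose 9.14-fold from pre-B to immature (4.73 to 19.7) and rose 2.80-fold from immature to mature (2.24 to 3.53). The rise from pre-B to immature was 3.19 on the log2 scale in CPM and 1.39 in FPKM. The counts per unit of FPKM of Cd22 were 5.88 in the pre-B and 19.1 in the immature library, while those of Pirb were 22 and 20.2.

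The Cd22 promoter was the only one among these genes with the palindrome bound by EBF1, a factor that sets up the B lineage (TCCC and GGGA with any 2 bases between them). The stretch around the match is shown from RefSeq (GRCm38.p6, chr7:30879038-30879107, minus strand), with the palindrome in capitals; its first base lies 49 bases before the start site.
Cd22: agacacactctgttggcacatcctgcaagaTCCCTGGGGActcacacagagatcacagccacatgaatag
The palindrome was found in 297 of 32851 promoters (0.904%), or for 287 of 27025 genes (1.06%). Each promoter was searched from 250 bases before to 50 after the start site. A match describes the letters only. Ebf1 itself had 1024, 157, 99.7 and 655 counts, or 1180, 652, 446 and 771 CPM.

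Siglecg (ENSMUSG00000030468, chromosome 7), the other inhibitory Siglec of B cells and prominent on B-1 cells, was read in the mature library alone. It had 0, 0, 0 and 46.8 counts, the last being 55.1 CPM (40.7 to 73.6). Against the 3 counts that a 0 allows, Siglecg was at least 15.9-fold higher in mature than in pro-B cells and at least 4.11-fold higher than in immature B cells. Of 2627 genes with 30 to 80 counts in the mature library, 17 (0.647%) were at 0 in pro-B cells and 8 (0.305%) were at 0 in all the other libraries. Its relative Siglech, a marker of plasmacytoid dendritic cells, had 105, 0, 4 and 0 counts.

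Cd72 (ENSMUSG00000028459, chromosome 4), a C-type lectin with an ITIM that binds the semaphorin CD100, took another course. It had 141, 24.3, 44.3 and 69.4 counts, or 163, 101, 198 and 81.7 CPM. The order was immature, pro-B, pre-B, mature, and the first and the last pair of neighbours did not differ beyond counting error, at 1.22-fold (0.843 to 1.71) and 1.24-fold (0.739 to 1.98). Cd72 was 2.43-fold lower in mature than in immature B cells in CPM (1.62 to 3.59), but in FPKM its level was slightly higher in mature cells (12.9 and 15.6, 0.27 on the log2 scale), so this direction rests on the scale. Between libraries of like mRNA total, Cd72 was 1.99-fold lower in mature than in pro-B cells (1.49 to 2.71), just short of the 2-fold limit. The FPKM difference was -1.06 on the log2 scale. Cd72 was the inhibitory gene with the most counts in noncoding transcripts. Its 2 noncoding transcripts held 30.2%, 39.1%, 29.6% and 25.5% of the counts of Cd72 from pro-B to mature.

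Fcgr2b (ENSMUSG00000026656, chromosome 1) encodes the inhibitory receptor for the Fc part of IgG, which recruits SHIP-1. It had 65, 31, 34 and 109 counts, or 74.9, 129, 152 and 128 CPM. The 3 upper levels did not differ beyond counting error in CPM. The ratios were 1.18-fold (0.703 to 1.98) between immature and pre-B and 1.01-fold (0.652 to 1.51) between pre-B and mature. In FPKM the mature level (14.3) stood above the pre-B and immature levels (3.48 and 4.02). Fcgr2b was 1.71-fold higher in mature than in pro-B cells (1.25 to 2.37), under the 2-fold limit, and 1.23 higher on the log2 scale in FPKM. The pre-B level was 1.72-fold above the pro-B level in CPM (1.09 to 2.68), but below it in FPKM (3.48 and 6.11). The activating relatives were low outside the pro-B library: Fcgr3 had 14, 2, 1 and 2 counts, Fcgr4 had 2, 0, 0 and 2, and Fcer1g, the signalling chain they share, had 86, 2, 2 and 14.

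Pirb (ENSMUSG00000058818, chromosome 7) binds MHC class I and carries several ITIMs. It had 76.2, 8.79, 19.0 and 62.9 counts, or 87.8, 36.6, 84.9 and 74.1 CPM. Pirb fell 2.40-fold from pro-B to pre-B (1.17 to 5.31), while the pro-B, immature and mature levels did not differ beyond counting error; the mature level was 1.19-fold below the pro-B level (0.834 to 1.68). In FPKM the immature level (0.94) was below the pro-B and mature levels (3.67 and 3.11). Pirb shares much of its sequence with the activating Pira genes and its counts were not whole numbers, so its level is uncertain. Pira2, the only Pira gene of the list that was in the table, had 17.8, 2.76, 0 and 8.14 counts.

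Lair1 (ENSMUSG00000055541, chromosome 7), an ITIM receptor for collagens, was read in the pro-B library alone, with 85, 0, 0 and 0 counts. Its pro-B level was 97.9 CPM (78.2 to 121). Lair1 was at least 7.84-fold lower in pre-B and at least 27.7-fold lower in mature than in pro-B cells. Of 2826 genes with 50 to 150 counts in the pro-B library, 35 (1.24%) were at 0 in the mature library and 12 (0.425%) were at 0 in all the other libraries.

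Markers of pro-B cells and of other cells were read beside Lair1. The pro-B list summed to 3388, 868, 139 and 67.1 CPM from pro-B to mature. Of its 9 genes, 0, 4, 6 and 3 were at 0 counts in these libraries. Dntt (845 counts) and Igll1 (427) were at 0 in all but the pro-B library. The T and NK list in sum was also high in the pro-B library alone, as was the plasmacytoid dendritic cell marker Siglech. Of 13 T and NK cell markers, 9 had 10 or more counts in the pro-B library and none did elsewhere, and their summed level was 498, 12.5, 35.8 and 5.89 CPM from pro-B to mature. Il2rb (119 counts), Gzma (106), Cd4 (45) and Ncr1 (39) led them in the pro-B library. Of the other T cell markers, Cd8a had 5 counts and Cd3g had 2 there, and Cd3d and Cd3e were at 0. Of 8 plasmacytoid dendritic cell markers, 8 had 10 or more counts in the pro-B library and 4, 4 and 5 in the pre-B, immature and mature ones. The sum of the list was 1771, 1282, 2201 and 1007 CPM. Of these 8, 5 were called lower and 0 higher in Mature vs. Pro, where 20.8% and 10.9% of all genes were. In Pre vs. Pro 5 were lower and 1 higher, where 23.7% and 14.4% of all genes were. Siglech had 105, 0, 4 and 0 counts. The 14 granulocyte and monocyte markers were read in every library, at 1909, 1961, 1506 and 1327 CPM in sum, with Csf1r and Cd14 at 0 in all of them. The part of each of these cell types in the level of Lair1 was not tested.

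**Figure D2:**
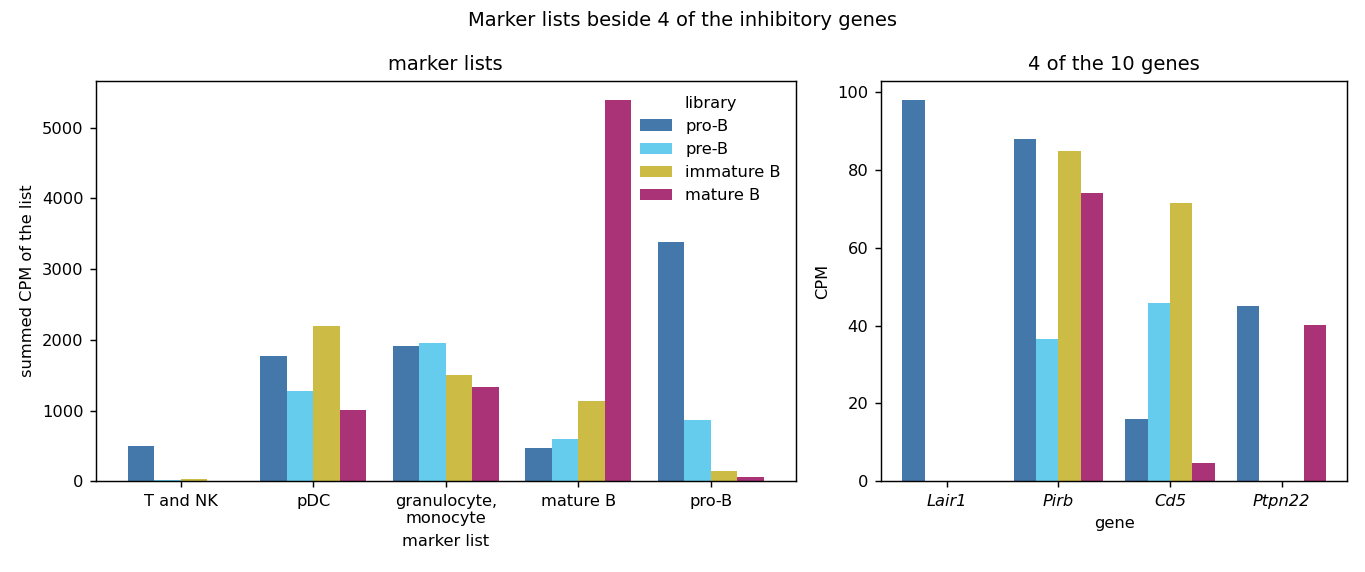
Left, summed CPM of marker lists (y axis, linear from 0) for other cells and for mature and pro-B cells in the 4 libraries (bars, 1 library each; pDC, plasmacytoid dendritic cells). Right, CPM of Lair1, Pirb, Cd5 and Ptpn22 in the same libraries. The T and NK list stands at 498 CPM in the pro-B library and at 35.8 CPM or less in the others, and Lair1 has counts in the pro-B library only.

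Btla (ENSMUSG00000052013, chromosome 16) encodes an immunoglobulin superfamily receptor that binds HVEM (Tnfrsf14) and recruits SHP-1 and SHP-2. It had 30.3, 0, 38.3 and 417 counts, or 34.9, 0, 171 and 491 CPM. The order was mature, immature, pro-B, pre-B, as for Cd22, and no neighbouring interval included 1; in FPKM (5.39, 0, 2.24 and 31.1) the pro-B library again came before the immature one. Btla was 14.1-fold higher in mature than in pro-B cells in CPM (9.80 to 21.3), and the difference was 3.82 on the log2 scale in CPM and 2.53 in FPKM. From pro-B to pre-B it was at least 2.79-fold lower, from pre-B to immature at least 13.7-fold higher and it rose 2.86-fold from immature to mature (2.07 to 4.14). The counts per unit of FPKM of Btla were 5.61 in the pro-B and 17.1 in the immature library.

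Cd5 (ENSMUSG00000024669, chromosome 19), a scavenger receptor family protein of T cells and B-1 cells that dampens antigen receptor signals, was the gene with the fewest counts among those read in every library. It had 14, 11, 16 and 4 counts, or 16.1, 45.8, 71.6 and 4.71 CPM. Cd5 fell 15.2-fold from immature to mature (4.90 to 62.5) and was 3.43-fold lower in mature than in pro-B cells (1.08 to 14.3), while from pro-B to pre-B it was 2.84-fold higher (1.17 to 6.73). None of these 3 calls held in FPKM (1.25, 1.42, 1.79 and 0.92), and the Mature vs. Pro call was also lost with TMM and with DESeq2 size factors. The pre-B level of Cd5 was below the pro-B level on the scale of the mRNA and lncRNA totals together. The T and NK marker list stood at 498 CPM in the pro-B library, led by the NK markers Il2rb and Gzma. In the pre-B, immature and mature libraries the whole list held 3, 8 and 5 counts (12.5, 35.8 and 5.89 CPM). No marker of the list had 10 or more counts in any of them. The part of T cells in the level of Cd5 was not tested.

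An 8-base core bound by PU.1, an ETS factor of B and myeloid cells, was found in the promoters of 4 of these genes. The stretches around the core (GAGGAAGT, or ACTTCCTC where it lies on the other strand) are shown with the core in capitals, since they set the start sites of 4 receptors with different courses side by side. They come from RefSeq (GRCm38.p6) at chr4:43454638-43454705 (minus strand), chr7:3720465-3720532 (minus), chr16:45224289-45224356 (plus) and chr19:10738990-10739057 (minus), in the order printed.
Cd72: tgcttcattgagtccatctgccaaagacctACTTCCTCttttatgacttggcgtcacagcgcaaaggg
Pirb: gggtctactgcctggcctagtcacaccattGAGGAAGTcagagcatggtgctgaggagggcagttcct
Btla: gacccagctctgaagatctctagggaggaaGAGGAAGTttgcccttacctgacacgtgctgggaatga
Cd5: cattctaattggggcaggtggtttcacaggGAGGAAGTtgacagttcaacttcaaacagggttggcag
The core began 49, 120, 18 and 53 bases before the start site in Cd72, Pirb, Btla and Cd5. It was found on either strand in 1052 of 32851 promoters (3.20%), or for 997 of 27025 genes (3.69%). All 10 genes had at least 1 promoter in the table, and neither pattern was found in those of Siglecg, Fcgr2b, Lair1, Ptpn6 and Ptpn22.

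Ptpn6 (ENSMUSG00000004266, chromosome 6) encodes SHP-1, the phosphatase that most of these receptors recruit. It had 229, 25, 200 and 753 counts, or 264, 104, 895 and 887 CPM. The immature and mature levels did not differ beyond counting error in CPM (1.01-fold, 0.859 to 1.18), whereas the mature level was 2.56 higher on the log2 scale in FPKM (17.1 and 101). Ptpn6 fell 2.54-fold from pro-B to pre-B (1.67 to 4.0) and rose 8.60-fold from pre-B to immature (5.66 to 13.6). The latter rise was 3.10 on the log2 scale in CPM and 1.88 in FPKM. It was 3.36-fold higher in mature than in pro-B cells (2.89 to 3.91), and 2.22 higher on the log2 scale in FPKM.

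Ptpn22 (ENSMUSG00000027843, chromosome 3) encodes a phosphatase that acts with the kinase CSK on SRC and SYK family kinases. It had 39, 0, 0 and 34 counts, or 44.9, 0, 0 and 40.0 CPM. The pro-B and mature levels did not differ beyond counting error (1.12-fold, 0.690 to 1.83). Ptpn22 was at least 3.60-fold lower in the pre-B than in the pro-B library and at least 2.98-fold higher in the mature than in the immature one. Of 1802 genes with 20 to 60 counts in both the pro-B and the mature library, 35 (1.94%) were at 0 in both of the other libraries. Ptpn7, another phosphatase of lymphocytes, was 0 in the same libraries, with 83, 0, 0 and 42 counts.

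Levels of different genes were compared per length, in FPKM. Cd72 was the highest of the 10 genes in pro-B (32.6 FPKM) and pre-B cells (6.88 FPKM), and Ptpn6 in immature (17.1 FPKM) and mature B cells (101 FPKM). In mature B cells Cd22 came next at 70.2 FPKM and Btla at 31.1 FPKM, above 99.5% and 98.5% of all genes in that library. The 4 lowest detected genes there were Siglecg (3.45 FPKM), Pirb (3.11), Ptpn22 (2.34) and Cd5 (0.92). In counts, the 10 genes together were at 879, 458, 1954 and 2825 CPM from pro-B to mature, and Cd22 and Ptpn6 made up 40.9%, 31.8%, 65.3% and 69.0% of these counts.

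Mature vs. Pro compared the libraries with the larger mRNA totals and spanned the whole course. There Cd22, Siglecg, Btla and Ptpn6 were higher in mature cells and Lair1 and Cd5 were lower. Thus 4 of 10 genes were called higher and 2 lower, where 10.9% and 20.8% of the 10327 genes considered were. Cd72, Fcgr2b, Pirb and Ptpn22 were not called. The median log2 ratio of the 10 genes, with Lair1 and Siglecg at their bounds, was 0.31, beside -0.18 over all genes.

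In Pre vs. Pro, Cd22, Pirb, Lair1, Btla, Ptpn6 and Ptpn22 were lower in pre-B cells and Cd5 was higher. Of the 9 genes considered 6 were called lower and 1 higher, where 23.7% and 14.4% of 9728 genes were, and Siglecg had no counts in either library. The median log2 ratio was -1.26, beside -0.34 over all genes. On the FPKM scale 7 were called lower and 0 higher, and 74.4% of all genes were then called lower.

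In Immature vs. Pre, 2 libraries of like mRNA total and mRNA share, Cd22, Btla and Ptpn6 rose and no gene of the 10 fell. These were 3 of the 7 genes considered, where 12.4% of 7013 genes were called higher and 12.5% lower. Their ratios lay above those of 98.8%, 99.7% and 98.6% of the genes considered. The other 4, Cd72, Fcgr2b, Pirb and Cd5, had ratios from 1.18 to 2.32 and were not called. The median log2 ratio of the 7 genes was 1.21, beside -0.01 over all genes, and the same 3 genes were called in FPKM.

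In Mature vs. Immature, Cd22, Btla, Siglecg and Ptpn22 were higher in mature cells and Cd72 and Cd5 were lower. Of the 9 genes considered 4 were called higher and 2 lower, where 19.7% and 17.6% of 9002 genes were. The median log2 ratio was -0.01, beside 0.16 over all genes. In FPKM 7 genes were called higher and 0 lower, with 69.0% of all genes then called higher, and the ratios of Cd72, Fcgr2b, Pirb and Ptpn6 turned from below to above 1.

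**Figure D3:**
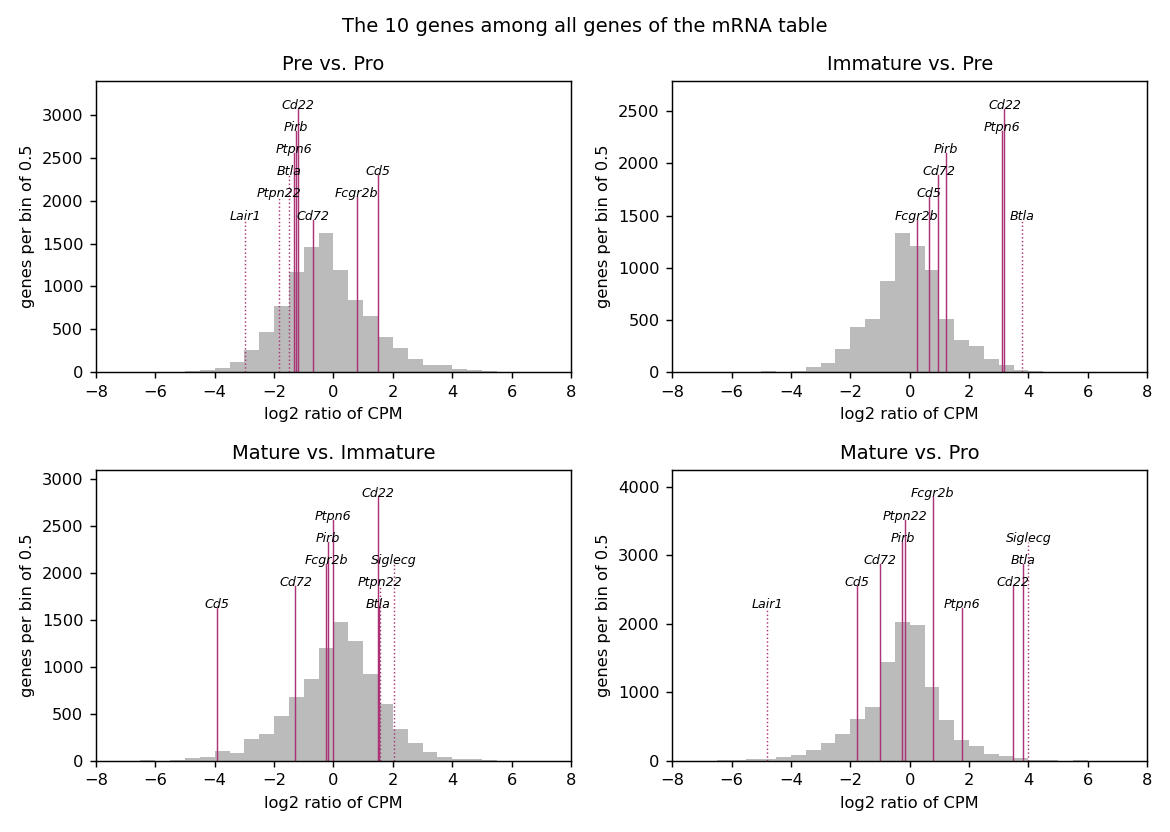
Number of genes (y axis, bins of 0.5) by log2 ratio of CPM (x axis) in the 4 comparisons, for all genes of the mRNA table with 10 or more counts over both libraries. Vertical lines mark those of the 10 genes that were considered, dotted where one library is at 0 and the ratio is a bound. Cd22, Btla and Ptpn6 lie in the upper tail in Immature vs. Pre, and Lair1 in the lower tail in Mature vs. Pro.

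**Figure D4:**
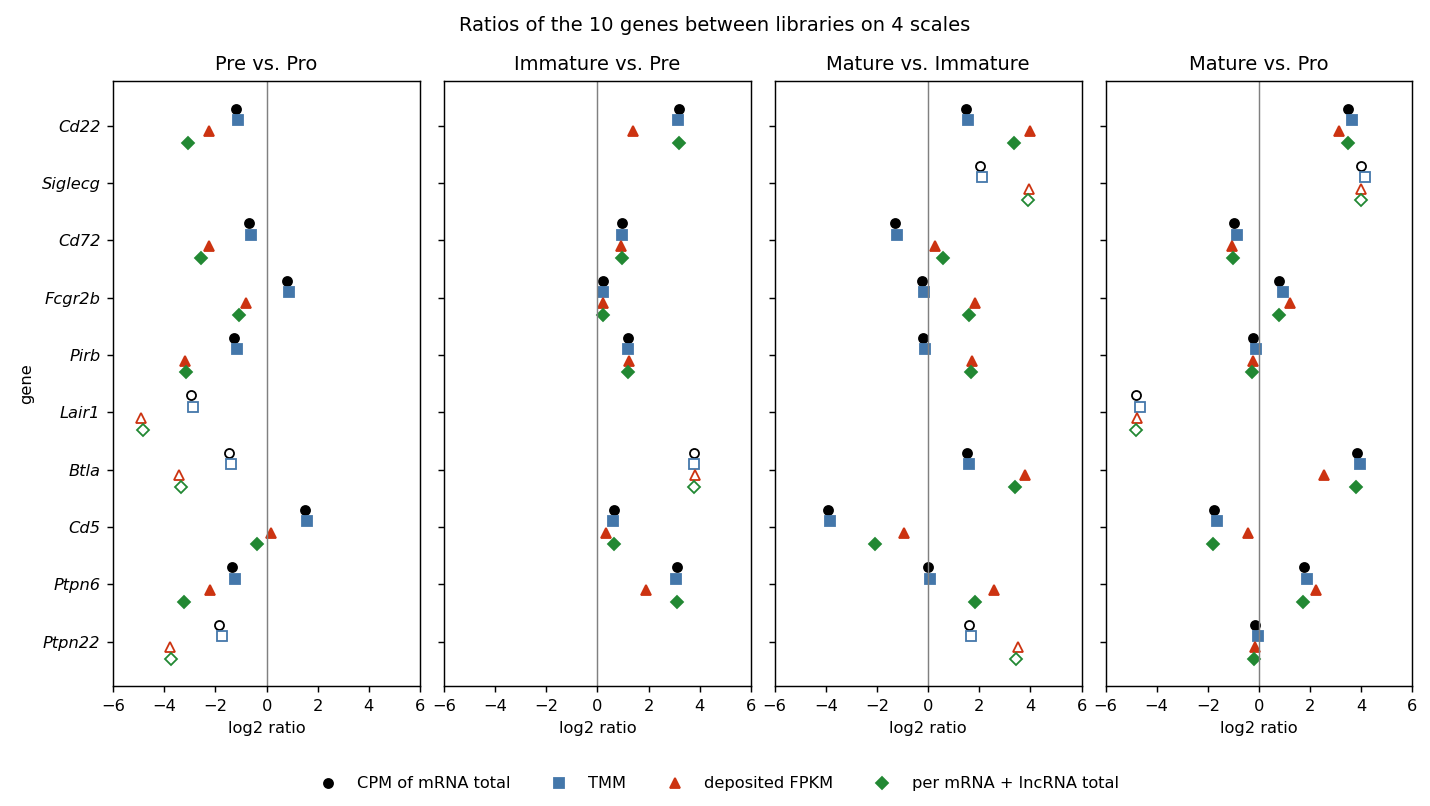
Log2 ratio (x axis) of each gene (y axis) in the 4 comparisons on 4 scales: CPM of the mRNA total, TMM, deposited FPKM, and counts scaled to the mRNA and lncRNA totals together. Open symbols are bounds from a count of 0, and a gene with too few counts in a comparison has no symbol. In Immature vs. Pre every symbol is above 0, whereas in Mature vs. Immature Cd72, Fcgr2b and Pirb lie below 0 in CPM and TMM and above 0 on the other 2 scales, and Ptpn6 lies near 0 in CPM and TMM and above 0 on the others.

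The course of Cd22 was set beside the enzymes of its ligand. St6gal1, which makes the sialic acid linkage that CD22 binds, had 160, 28, 28 and 340 counts, or 184, 117, 125 and 400.3 CPM, and rose 3.20-fold from immature to mature (2.17 to 4.88). Cmah, which makes the glycolyl form of sialic acid preferred by mouse CD22, had 104, 19.2, 4.26 and 557 counts, or 119.7, 80.1, 19.1 and 655 CPM. Cmah rose 34.4-fold from immature to mature (14.2 to 135). Cmas, which activates sialic acid for transfer, had 101, 9, 0 and 27 counts, or 116, 37.5, 0 and 31.8 CPM. Like St6gal1 and Cmah it was called higher in Mature vs. Immature, from a count of 0. In Mature vs. Pro it was lower, whereas St6gal1 and Cmah were higher. Of all 12 ligand genes listed, 2 were higher and 2 lower in Mature vs. Pro among 9 considered, where 10.9% and 20.8% of all genes were. In Mature vs. Immature 3 were higher and 1 lower among 9, where 19.7% and 17.6% of all genes were.

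Other parts of the inhibitory system were counted from lists, to be read against the same shares of all genes: 10.9% higher and 20.8% lower in Mature vs. Pro, 14.4% and 23.7% in Pre vs. Pro, 12.4% and 12.5% in Immature vs. Pre, and 19.7% and 17.6% in Mature vs. Immature. Of 14 other inhibitory receptors in the table, 7 had enough counts in Mature vs. Pro, of which 0 were higher and 2 lower; Ceacam1, an ITIM receptor, had 101, 2, 42 and 108 counts. Pecam1 and Ceacam1 were the 2 that had enough counts in Immature vs. Pre, and both were called higher. In Mature vs. Immature 4 of these receptors were considered, of which 0 were higher and 1, Pecam1, was lower. In Pre vs. Pro 0 were higher and 2 lower among 7 considered. Of 20 other negative effectors, 15 were considered in Immature vs. Pre, of which 3 were higher and 2 lower. In Mature vs. Immature 4 were higher and 1 lower among 17 considered. All 20 were considered in the other comparisons. There 1 was higher and 4 lower in Mature vs. Pro, and 3 were higher and 8 lower in Pre vs. Pro. Among the latter was Inpp5d, the SHIP-1 gene that Fcgr2b relies on, with 651, 70.5, 72.5 and 465 counts, or 751, 293, 324 and 548 CPM. Of 14 kinases and activating co-receptors, 4 were higher and 2 lower in Mature vs. Pro, and 5 were higher and 2 lower in Mature vs. Immature. Lyn had 281, 113, 48.0 and 368 counts, or 324, 470.4, 215 and 433 CPM. Of 10 relatives of these genes in the table, 6 had enough counts in Mature vs. Pro, of which 0 were higher and 4 lower. In the deposited pathway annotation, 6 of the 10 genes had any pathway, as had 9191 of all 22298 genes. The BCR signaling pathway held 201 genes, among them 5 of the 10 (Cd22, Cd72, Fcgr2b, Pirb and Ptpn6). The 10 genes were chosen as restraining BCR signals, so this count is not a result about them.

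Transcripts without a coding frame were listed for 7 of the 10 genes, 13 in all, of which 6 had no counts. A Cd72 transcript (ENSMUST00000151868) had 61.1, 11.7, 5 and 18.9 counts, the same order of pro-B and mature as the coding row, and another (ENSMUST00000141198) had 0, 3.89, 13.6 and 4.82. The noncoding transcripts held 7.69% of the counts of Cd22 in pro-B and 1.19% in mature B cells, and 19.3% of those of Btla in pro-B cells and none in the other libraries. For Ptpn6 they held 0.791% in mature B cells and none elsewhere.

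A group of 5 miRNAs was followed in the small RNA libraries. miR-181a, which targets Ptpn22 in T cells, and miR-155, which targets Inpp5d, are known regulators, and miR-15a-3p and miR-3058-5p are listed by the study beside Lair1. Their RefSeq sequences, identical to the deposited tags, are shown because the 2 forms of miR-181 share a seed; the seed (bases 2 to 8) is in capitals.
miR-181a-5p: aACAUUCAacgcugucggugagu
miR-181b-5p: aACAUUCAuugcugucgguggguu
miR-155-5p: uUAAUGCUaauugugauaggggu
miR-15a-3p: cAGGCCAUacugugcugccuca
miR-3058-5p: uCAGCCACggcuuaccuggaaga
The 2 miR-181 forms are each encoded on chromosomes 1 and 2, and the loci cannot be told apart from the mature tag.

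miR-181a-5p had 92268, 95907, 120291 and 38449 TPM, the tag count scaled to the library total, from pro-B to mature and was the second most abundant miRNA in the first 3 libraries. It was 3.13-fold lower in mature than in immature B cells (3.10 to 3.16), and miR-181b-5p, at 11065, 9996, 8929 and 1028 TPM, was 8.69-fold lower (8.23 to 9.17). Ptpn22 had 34 counts in the mature library, where both were lowest, and 39 in the pro-B library, where both were high. miR-155-5p had 84.3, 74.0, 101 and 122 TPM and was 1.45-fold higher in mature than in pro-B cells (1.11 to 1.90), where Inpp5d was 1.37-fold lower (CPM ratio 0.730, 0.647 to 0.823). miR-15a-3p had 8, 29, 31 and 18 tags and miR-3058-5p had 0, 7, 8 and 4, so both were near the limit of counting while Lair1 went from 85 counts to 0. Their ratios between pre-B and pro-B cells did not leave out 1 (miR-15a-3p 2.03-fold, 0.907 to 5.15). These are values side by side from separate libraries, and no relation between them was tested.

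**Figure D5:**
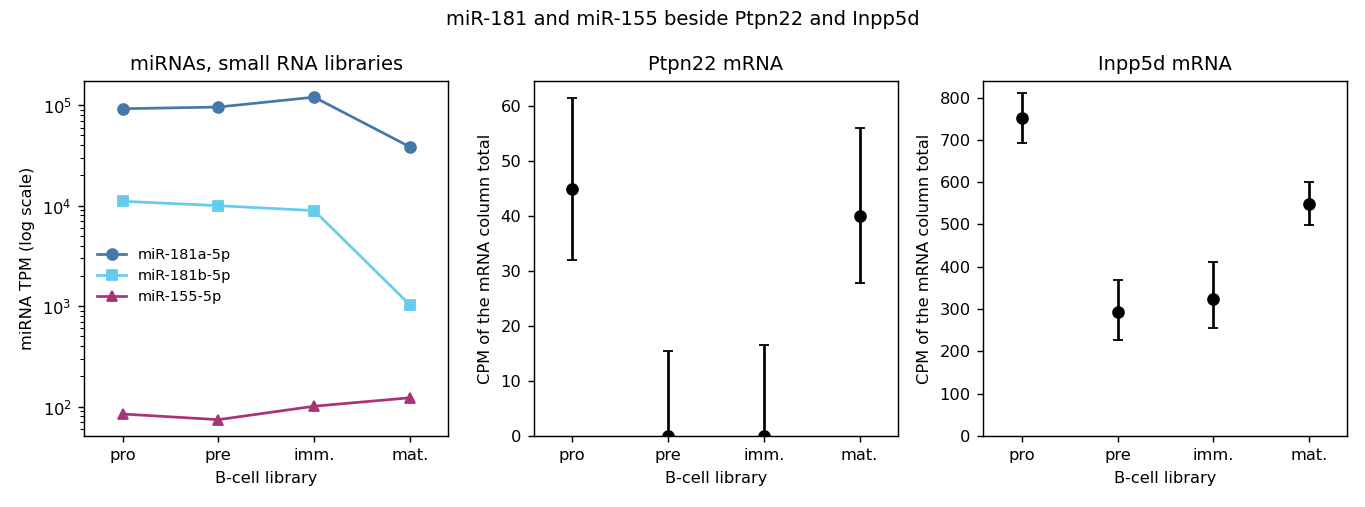
Left, TPM of miR-181a-5p, miR-181b-5p and miR-155-5p (log y axis) in the 4 small RNA libraries (x axis, 1 library each). Middle and right, CPM of Ptpn22 and Inpp5d in the rRNA-depleted libraries, with exact 95% Poisson intervals. Both miR-181 forms are lowest in the mature library, and Ptpn22 is at 0 in the pre-B and immature libraries.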

How the data were processed

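Per the labels and the study's methods, cells of 3 mice were pooled for each stage, and strand-specific rRNA-depleted and small RNA libraries were sequenced. The authors filtered reads with fastp 0.18.0, removed rRNA with Bowtie2 2.2.8, aligned with HISAT2 2.1.0 (2.1.1 for circRNAs) and quantified with StringTie 1.3.4. The submitters' processing notes also name Bowtie 0.12.2 and mm9, but 931 of 945 circRNAs with a host gene matched in RefSeq (98.5%) overlapped the GRCm38 span of their host gene, so their coordinates are given as GRCm38. The authors deposited estimated counts and FPKM for mRNAs and lncRNAs, read counts for circRNAs, and tag counts with TPM for miRNAs. No replicate exists in any group.

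From the deposited estimated counts, CPM of the column total, Poisson intervals and conditional binomial intervals (counts rounded to whole numbers) were computed with scipy 1.17.1. A call needed a ratio of at least 2-fold, a 95% interval without 1 and 10 or more counts over both libraries. The ratio procedure was tested on simulated data. Alternatives were the deposited FPKM, TMM (edgeR 4.0.16), DESeq2 1.42.0 size factors, a total without immunoglobulin genes, other call rules and other minimum counts. Only the scale was taken from edgeR and DESeq2. All 10 genes are named, and of each other list the 4 genes with the most counts or those bearing directly on one of the 10; circRNAs are named by host. Lyn, St6gal1, Cmah, Cmas, Cd8a and Cd3g were named after their values were seen. Rag2 and Il2ra also fall outside this rule, and they are the genes of the pre-B list that were highest in the pre-B library. The genes and lists were chosen with earlier results of these data known. Protein sequences were not used here.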

Additional observations from a re-analysis of the deposited data

Results flagged for a closer look

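The circRNA table, which no comparison above uses, held 4 of 1005 circRNAs hosted by 3 of the 10 genes, each above the 3 reads that a count of 0 allows in at least 1 library. novel_circ_000979, of annotated exons of Cd72 (GRCm38, chr4:43449452-43452556, minus strand), had 4 back-spliced reads in the pro-B library and 0 in the others. novel_circ_000538, on the strand opposite to Cd22 (chr7:30865944-30866153, plus strand), had 4 reads in the pre-B library and 0 in the others. novel_circ_000610, of 1 exon of Cd22 (chr7:30875890-30876147, minus strand), had 4 reads in the immature library and 0 in the others. novel_circ_000583, of 1 exon of Btla (chr16:45251282-45251849, plus strand), had 4 reads in the immature and 4 in the mature library. With 4 reads each, a difference from 0 between libraries was not detectable.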

How the results depend on the processing

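No paired analysis was possible because each group has 1 library, and for the same reason no replicate could be left out. With a minimum of 50 counts the called genes went from 7 to 4 in Pre vs. Pro and from 6 to 3 in Mature vs. Immature, since only 6 genes were then considered in each; in the other comparisons and alternatives the number stayed within 1.5 times. Relative to the mRNA total, DESeq2 size factors moved the median gene by 0.19 and 0.18 on the log2 scale in Pre vs. Pro and Mature vs. Pro, and TMM by 0.15 in Mature vs. Pro. The total of both tables, chosen after seeing the data, moved it by -1.87 in Pre vs. Pro and 1.86 in Mature vs. Immature. On that scale the log2 ratios of Fcgr2b and Cd5 in Pre vs. Pro became -1.09 and -0.37. In Mature vs. Immature, Cd72, Fcgr2b, Pirb and Ptpn6 became 0.27, 1.83, 1.73 and 2.56 in FPKM, and 0.58, 1.61, 1.66 and 1.85 per both totals. Of 175 ratios on other scales, 13 changed sign: these 10, Fcgr2b in Pre vs. Pro in FPKM (-0.81), Ptpn6 in Mature vs. Immature with TMM (0.07) and Ptpn22 in Mature vs. Pro with DESeq2 size factors (0.01), the last 3 uncalled on both scales. Low mRNA totals limit the pre-B and immature libraries, where a 0 allows up to 12.5 and 13.4 CPM.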
